A study of Mus musculus with 18 samples.

Results

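Neuronal precursor (NP) cells were compared with the embryonic stem (ES) cells they were made from, on 6 of the 18 arrays of a study of Tdg, the gene of thymine DNA glycosylase, a DNA repair enzyme. The 6 arrays were chosen by cell type and genotype: 3 of NP cells and 3 of ES cells, all Tdg+/-, so both groups were heterozygous for a Tdg mutation and no wild-type cells enter the comparison. The NP cells were sampled at day 4 of differentiation. For this, embryoid bodies were formed without feeder cells or LIF, exposed to all-trans retinoic acid (5 µM) and then kept in DMEM-F12 medium with N2 supplement. The ES cells, at day 0, were grown in DMEM with 15% serum and 1000 U/ml LIF. The labels do not say from which step the 4 days were counted, how many ES lines were used, or whether replicates were grown as separate cultures. P-values therefore measure only the spread between these arrays, which may be technical.

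LIF is the cytokine that holds mouse ES cells in self-renewal, and embryoid bodies are the cell aggregates in which they start to differentiate once it is withdrawn. Retinoic acid enters the nucleus, binds retinoic acid receptors on DNA and turns their target genes on; applied to embryoid bodies it steers cells to a neural fate. Pluripotency genes are shut down on this path while genes of neural precursors are activated, so the comparison asks how many transcripts appear, disappear or change in amount.

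Total RNA of 500 ng a sample was hybridised to Illumina arrays with 45281 probes. Each probe has an intensity and a detection p-value, which sets it against the array's background; a probe is called detected here where that p is under 0.01. On the 6 arrays 35.9% to 39.9% of probes were detected. The number of arrays limits the precision. Levels are log2 intensities after background correction and quantile normalization, on which the lowest detected probe of an array lay between 5.34 and 5.66. Arrays of one group correlated at 0.993 to 0.994 over the 19285 tested probes, in NP as in ES cells, and NP arrays correlated with ES arrays at 0.852 to 0.858. In a principal component analysis of all 12 ES and NP arrays of the study the first component held 88.3% of the variance and separated every NP array from every ES array. The 6 arrays lay on 2 slides, slide 1 with 2 NP and 1 ES arrays and slide 2 with 1 NP and 2 ES arrays.

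No gene is named, because names and values do not match in the tables of these arrays. Ribosomal proteins are made by every cell, yet the probes carrying their names were detected on all 3 NP arrays in 37.6% of cases and on all 3 ES arrays in 40.6%. For probes named for olfactory receptors, which these cells should lack, the shares were 36.8% and 35.5%, and for all probes 35.4% and 34.1%. Of 8 probes named for neural precursor genes, 1 was detected on all NP arrays and 3 on all ES arrays (12.5% and 37.5%). Of 14 named for pluripotency genes the counts were 10 and 9 (71.4% and 64.3%). These last shares lie above those for all probes, in NP as in ES cells, but rest on few probes. Over 11865 gene names the mean ES level correlated with that of the fibroblast arrays of the same study at a Spearman rho of 0.0444. The labelled cell types could therefore not be checked against their markers. Feeder cells could not be looked for either, and in bulk RNA fewer cells of a type and less RNA per cell cannot be told apart. Probes are described by number, level and change, and the ones shown singly by rank; several probes may measure 1 transcript.

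In NP cells 1304 probes were switched on: they were detected on all 3 NP arrays and on no ES array. Another 840 were switched off, with detection on all 3 ES arrays and on no NP array. Most probes detected at either stage were present at both: 13900 were detected on all 6 arrays, while 24507 were detected on none. The probes switched on made up 8.15% of the 16007 detected on all 3 NP arrays, and those switched off 5.44% of the 15454 detected on all 3 ES arrays. The remaining 4730 probes were detected on some arrays of a group only. These classes are set by the arrays themselves, so their levels on these 6 arrays are descriptions with no test.

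**Figure D1:**
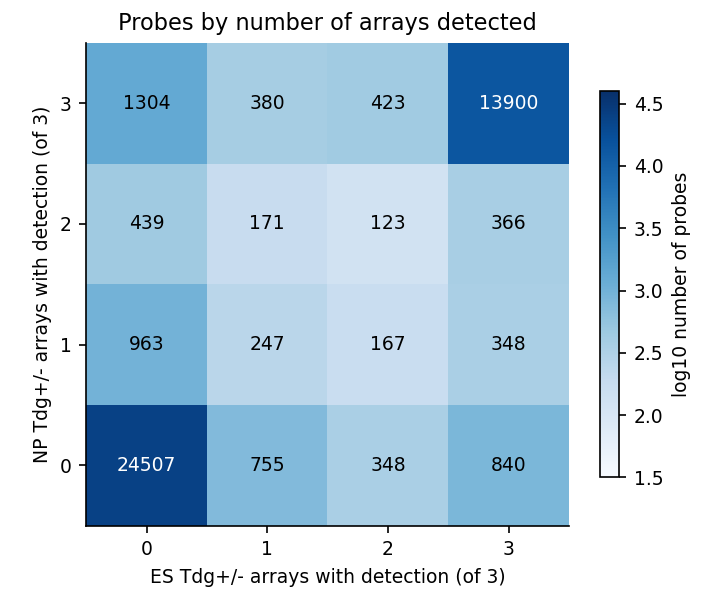
Number of probes by how many of the 3 NP Tdg+/- arrays (vertical axis) and of the 3 ES Tdg+/- arrays (horizontal axis) detected them, with colour giving the log10 number. The corners hold the 1304 probes switched on (top left), the 840 switched off (bottom right), the 13900 detected on all 6 arrays and the 24507 detected on none.

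Most probes switched on came up from background to a low level. Their median NP level was 6.36, against 8.25 for all probes detected on all NP arrays, and 10.2% of them (133 probes) lay above that wider median. A level of at least 10 on the log2 scale was reached by 25. Since a probe under the detection limit has only a bound in ES cells, folds are given as lower bounds: the mean of the NP arrays against, on each ES array, the higher of the lowest detected level and the probe's own level. The size of such a bound depends on the scale of level, so it is given on 3 scales. These are levels with background correction, levels without it, and the authors' deposited log2 values, whose transformation is not stated. A fold from that last scale takes its values as plain log2 intensities, which is not known. The median bound was 1.72-fold on the background-corrected levels, 1.26-fold without the correction and 1.08-fold in the authors' deposited table. It reached 2-fold for 539 probes on the corrected levels, for 236 without the correction and for 76 in the authors' deposited table. For 18 probes the corrected bound was under 1, so that no fold is given.

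Many of the probes switched on lay close to the detection limit in ES cells. Of the probes switched on, 593 (45.5%) had a detection p under 0.05 on at least 1 ES array. A further 380 probes were detected on all 3 NP arrays and on a single ES array, with a median log2 difference of 0.86, and 439 on 2 NP arrays and no ES array, with 0.63; the median of the class itself was 1.49. For the probes switched off the near misses numbered 348 on either side.

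The probe that came up highest had NP levels of 12.78, 12.81 and 12.71, against 4.35, 4.46 and 4.74 in ES cells. Its ES values lay at background on all 3 arrays, with detection p-values of 0.965, 0.717 and 0.219. It was at least 19.98-fold higher in NP cells on all 3 scales: the bound was 146-fold on the corrected levels, 53.3-fold without the correction and 19.98-fold in the authors' deposited table. In unprocessed intensity it read 7021, 7199 and 5961 on the NP arrays and 77.3, 108 and 126 on the ES arrays. The next highest had NP levels of 11.85, 12 and 12, against 5.08, 4.71 and 4.84 in ES cells. The third had 11.54, 11.39 and 11.62 in NP cells, against 4.51, 4.51 and 4.59 in ES cells. The bounds of these 2 were 82.7-fold and 61.3-fold on the corrected levels, 30.4-fold and 22.7-fold without the correction, and 11.2-fold and 8.35-fold in the authors' deposited table. For all 3 the NP and ES arrays were far apart, and the replicates of a group spread by no more than 0.20 (SD).

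The probes switched off mirrored this pattern at the other end. Their median level in ES cells was 6.47, 82 of them (9.76%) lay above the median of all probes detected on the ES arrays, and 26 were at 10 or higher. In NP cells none was detected, and the median bound was 2.01-fold lower there on the corrected levels, 1.35-fold without the correction and 1.102-fold in the authors' deposited table. The bound was 2-fold or more for 424 probes on the corrected levels, for 194 without the correction and for 59 in the authors' deposited table. The brightest of them had levels of 5.12, 5 and 4.85 in NP cells, against 13.57, 13.64 and 13.65 in ES cells. Its detection p-values in NP cells were 0.0502, 0.0694 and 0.104. Its bound was 285-fold lower in NP cells on the corrected levels, 98.2-fold without the correction and 37.6-fold in the authors' deposited table. The next 2 had NP levels of 4.58, 4.6 and 4.57 against ES levels of 12.42, 12.24 and 12.27, and NP levels of 4.74, 4.70 and 5.06 against ES levels of 11.89, 12.09 and 11.94. Their bounds were 115-fold and 91.2-fold on the corrected levels, 40.0-fold and 31.9-fold without the correction, and 14.5-fold and 11.5-fold in the authors' deposited table.

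**Figure D2:**
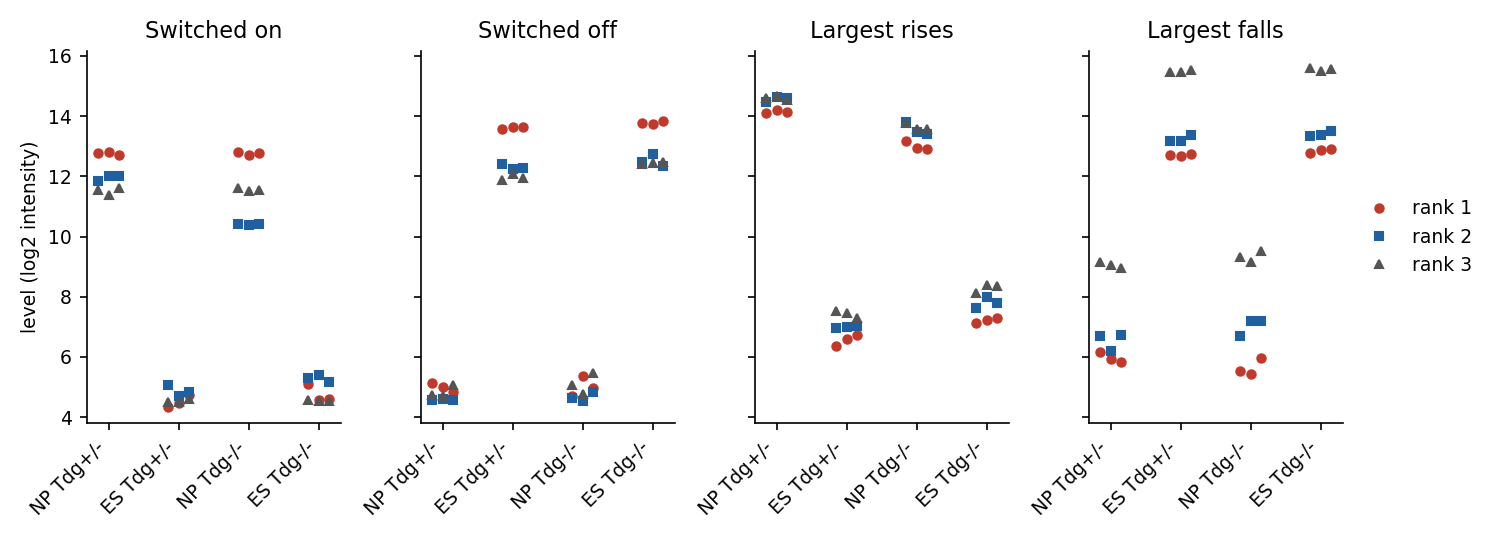
Levels (log2 intensity) on each array of the 3 brightest probes switched on, the 3 brightest switched off, and the 3 largest rises and falls among probes detected on all 6 Tdg+/- arrays; each point is 1 array and the symbol gives the probe's rank. NP and ES arrays of a genotype do not overlap for any of the 12 probes, and the NP Tdg-/- arrays lie under the NP Tdg+/- arrays for the second probe switched on and the 3 largest rises.

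More probes were switched on than off. This excess is itself a part of the difference in detected probes per array, so they are not separate observations. The NP arrays detected 16978, 16904 and 18062 probes and the ES arrays 16249, 16705 and 17083. The means were 17315 ± 648 in NP cells and 16679 ± 418 in ES cells (SD, n = 3 each). The groups overlapped, and an exact two-sided permutation test gave p = 0.3, where 3 against 3 arrays cannot go below 0.1. On slide 1 the NP mean was 16941 and the ES array had 16249; on slide 2 the NP array had 18062 and the ES mean was 16894. The lowest detected intensity was 133, 141 and 111 on the NP arrays and 119, 150 and 153 on the ES arrays. When the 16249 brightest probes of each array were taken as detected, an alternative chosen after the data were seen, 1200 probes were switched on and 1049 off. Leaving out an array also loosens the rule, since fewer arrays must meet it. Without NP_het replicate 3, the array with the most detected probes, 1355 were switched on and 1062 off. Without NP_het replicate 1 the counts were 1483 on and 909 off, and without NP_het replicate 2 they were 1513 and 897. Leaving out an ES array in turn gave 1376 to 1505 on and 905 to 1014 off. On slide 1 alone the counts were 1950 on and 1471 off, and on slide 2 alone, with a single NP array, 2451 on and 1226 off. The part of the detection limit in the excess was not tested beyond these values.

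**Figure D3:**
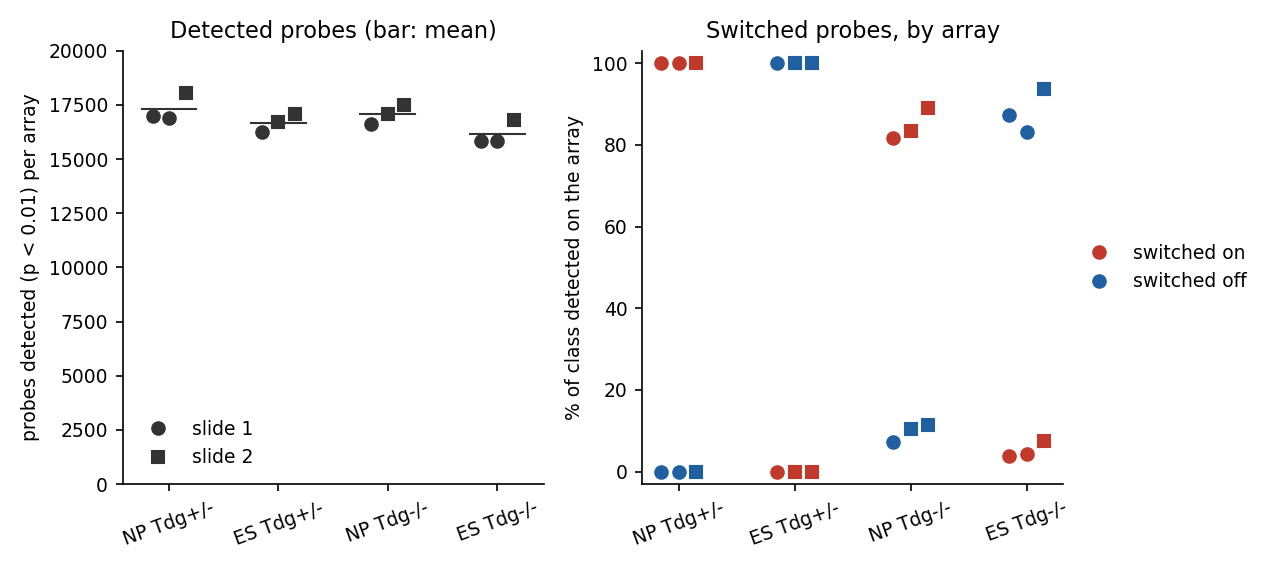
Left, number of detected probes on each array with the group mean as a line and the slide as the symbol; right, percentage of the 1304 probes switched on (red) and the 840 switched off (blue) that were detected on each array. The Tdg+/- arrays on the right stand at 0 or 100% because they set the classes, while on the Tdg-/- arrays, which did not, probes switched on were detected at 81.6% to 89.0% in NP cells and 3.76% to 7.59% in ES cells.

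Most tested probes differed in level between NP and ES cells. In limma's test with Benjamini-Hochberg adjustment 13405 of 19285 tested probes differed between NP and ES cells (69.5%), 6686 higher in NP cells (34.7%) and 6719 lower (34.8%). For 14234 probes (73.8%) the 3 NP arrays and the 3 ES arrays did not overlap. The count was 13441 with slide as a block, and 9991 and 10000 within slides 1 and 2. Changes of at least 2-fold were seen in 2980 probes that rose and 2777 that fell, and at least 8-fold in 341 and 304. All these counts include switched probes: 1270 of those switched on and 836 of those switched off are among the 13405. These arrays chose them, so their calls are no test of the switch. Their fitted sizes are not exact, as a level under the detection limit is only a bound. The median size of the log2 difference was 0.60 over all tested probes, beside a median SD between replicates of 0.135 in NP and 0.122 in ES cells. The counts of rises and falls were close, with a median log2 difference of -0.02 over all tested probes, but quantile normalization gives every array the same distribution. With arrays scaled to one median instead, 6228 probes were higher and 5949 lower in NP cells. A change in the total amount of RNA per cell could not be seen on either scale.

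Among the 13900 probes detected on all 6 arrays, 9547 were tuned, that is, changed past the threshold without leaving the detected range. Of the 13900, 4575 rose in NP cells (32.9%) and 4972 fell (35.8%), close to the shares over all tested probes. The rises had a median of 1.71-fold and the falls one of 1.71-fold, and 5% of each exceeded 5.36-fold and 5.02-fold. The median log2 difference was 0.78 for rises and -0.77 for falls on the corrected levels, 0.58 and -0.57 without the correction, and 0.39 and -0.37 in the authors' deposited table. At least 2-fold changes were made by 1638 probes that rose and 1705 that fell, at least 8-fold ones by 126 and 136, and at least 32-fold ones by 15 and 18.

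**Figure D4:**
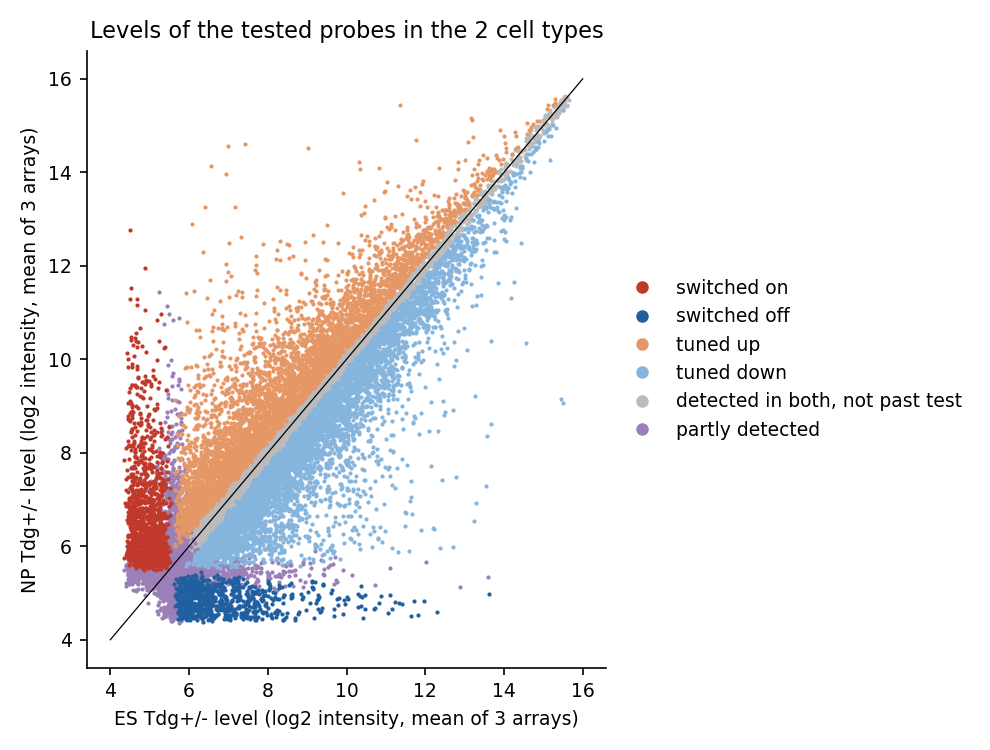
Mean level of each tested probe in NP Tdg+/- cells (vertical axis) and ES Tdg+/- cells (horizontal axis), log2 intensity over 3 arrays each, coloured by class, with the line of equal levels. Probes switched on form the column at the left and probes switched off the row at the bottom, while the 4575 tuned up and 4972 tuned down lie off the line across the whole range of levels.

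Probes detected at both stages included very large rises, whose size depended on the scale of level. The first had NP levels of 14.11, 14.20 and 14.13, against 6.37, 6.61 and 6.72 in ES cells, a 191-fold rise (log2 difference 7.58 ± 0.11, SE; limma adjusted p = 1.46e-13). The second stood at 14.46, 14.63 and 14.60 in NP cells, against 6.96, 7.01 and 7.02 in ES cells. The third stood at 14.61, 14.67 and 14.54, against 7.51, 7.46 and 7.30. They rose 189-fold and 146-fold (limma adjusted p = 2.13e-13 and 1.46e-13). Without background correction the 3 rises were 101-fold, 114-fold and 97.7-fold, and in the authors' deposited table they were 49.9-fold, 64.1-fold and 61.3-fold. These 3 probes lie within 2 rows of each other in the deposited table of intensities, and whether they measure 1 transcript was not tested.

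The largest falls of probes detected at both stages differed in how far they depended on the scale of level. The first fell to 6.16, 5.93 and 5.84 in NP cells, against 12.70, 12.68 and 12.73 in ES cells, which is 106-fold (log2 difference -6.72 ± 0.13, SE; limma adjusted p = 1.19e-12). The second fell to 6.68, 6.21 and 6.73 in NP cells, against 13.18, 13.19 and 13.37 in ES cells, which is 105-fold (limma adjusted p = 4.63e-12). The third fell to 9.15, 9.05 and 8.97, against 15.48, 15.46 and 15.52, which is 86.1-fold (limma adjusted p = 2.08e-13). Without background correction the 3 falls were 45.6-fold, 55.0-fold and 74.4-fold, and in the authors' deposited table they were 18.4-fold, 25.7-fold and 72.3-fold. The third, whose size moved least, was far above background in NP cells too, with intensities of 713, 688 and 563. In ES cells it read 43418, 51399 and 51162, near the brightest probes of those arrays, which read 51553, 53697 and 54561.

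The other 4353 probes detected on all 6 arrays did not pass the test. For 4296 of them (98.7%) the 95% interval of the change lay within 2-fold either way, and for 3472 (79.8%) within 1.5-fold. Of the 4730 probes detected on part of the arrays, 3163 were tested, and 821 were higher and 901 lower in NP cells.

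By signal, tuned probes held more of the change than switched probes, on the corrected levels. The same arrays chose the classes, which largely fixes the direction in which each class's share moves. Switched probes are also fewer than tuned ones, and lie under the detection limit in either NP or ES cells. Probes tuned up carried 34.1% ± 0.14 of the summed normalized signal in NP cells and 19.2% ± 0.09 in ES cells (SD, n = 3 each). Probes tuned down carried 20.6% ± 0.17 in NP cells and 35.4% ± 0.21 in ES cells. The probes switched on carried 0.916% ± 0.017 in NP cells and 0.167% ± 0.0014 in ES cells, and those switched off 0.104% ± 0.0021 in NP cells and 0.751% ± 0.0062 in ES cells. In all, 17.5% of the signal, after background correction, moved: tuned probes held 85% of what was gained and 84.6% of what was lost, and switched probes 4.28% and 3.7%. The 1000 probes that gained most held 65.9% of the gain. A sum of intensities over probes weighs each probe by its own brightness and is no count of RNA molecules.

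The Tdg-/- arrays give the same differentiation in samples that took no part in setting the switched classes. They did enter the tuned classes, through a spread estimate shared by all 12 arrays and a common normalization. With the 6 Tdg+/- arrays fitted alone, 4592 probes were tuned up and 5033 tuned down. On the 3 NP Tdg-/- arrays 1064, 1086 and 1160 of the 1304 probes switched on were detected, and on the 3 ES Tdg-/- arrays 49, 58 and 99. Of the 840 probes switched off, the NP Tdg-/- arrays detected 61, 87 and 97 and the ES Tdg-/- arrays 734, 699 and 787. By the full rule 844 of the 1304 were switched on in Tdg-/- cells too, which is 64.7% of them and 61.9% of the 1363 switched on in Tdg-/- cells. For the probes switched off, 523 were shared, 62.3% of the 840 and 69.3% of the 755. No probe was switched on in one genotype and off in the other. The share that switched again was lower for probes with a bound under 2-fold, on the corrected levels, with no steady rise above that. For probes switched on it was 44.1% with a bound under 1.5-fold and 66.4% with 1.5 to 2-fold. It was 80.2% with 2 to 4-fold, 91.6% with 4 to 8-fold and 89.2% with 8-fold or more. For probes switched off the shares were, in the same order, 26.9%, 61.3%, 80.8%, 79.3% and 80.8%. The bound is measured from the detection limit, which the rule for a switch also uses, so in part this pattern is built in.

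The changes themselves recurred more often than the switches, but by an unlike rule. A switch had to meet the detection rule on all 6 Tdg-/- arrays, while a change needed only an adjusted p under 0.05. In limma's test on the 6 Tdg-/- arrays alone, 67.8% of all tested probes differed, 34.2% higher in NP cells and 33.7% lower. With arrays scaled to one median, 6398 probes were higher and 5206 lower in these cells, so that 55.1% of the calls were rises. Of the probes switched on in Tdg+/- cells 1150 (88.2%) were higher and 2 were lower, and of those switched off 772 (91.9%) were lower and none higher. Of the probes tuned up 3887 (85%) rose again and 42 fell, and of those tuned down 4167 (83.8%) fell again and 38 rose. The median log2 differences were 1.49 in Tdg+/- and 1.37 in Tdg-/- cells for probes switched on, and -1.65 in each genotype for those switched off. For probes tuned up they were 0.78 in Tdg+/- and 0.79 in Tdg-/- cells, and for those tuned down -0.77 in each. Over the 19285 tested probes, which are not independent of each other, the log2 differences of the 2 genotypes correlated at 0.943 (Pearson), as a description. The genotypes share no array in this comparison, but they were hybridised on the same 2 slides.

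**Figure D5:**
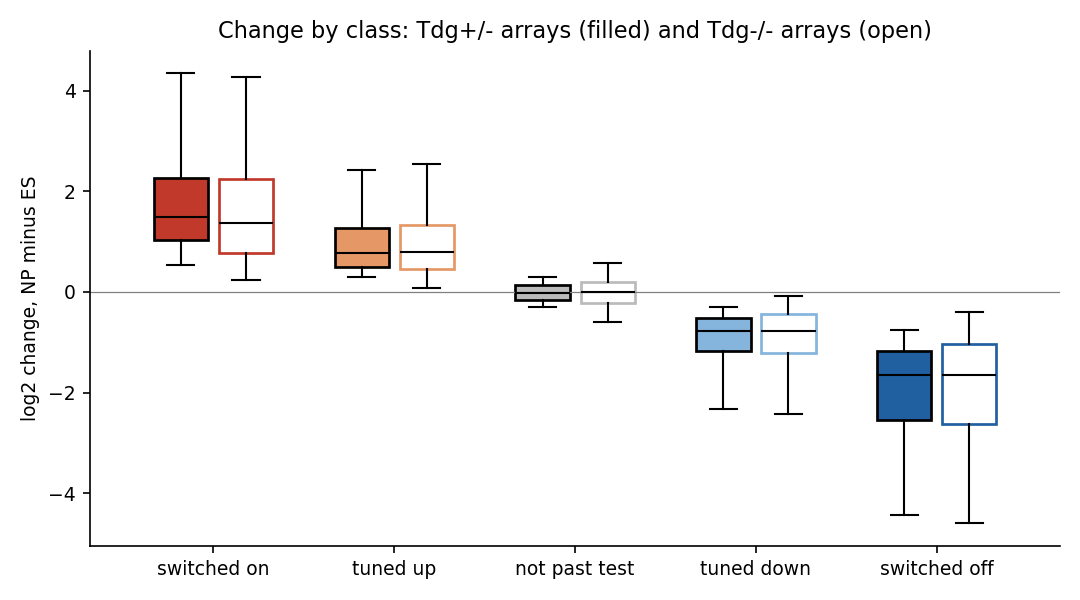
Change from ES to NP cells (log2 difference, NP minus ES) by class, on the Tdg+/- arrays (filled) and the Tdg-/- arrays (open). Boxes are quartiles with the median, and whiskers the 5th and 95th percentiles. The Tdg-/- arrays took no part in setting the switched classes, but entered the spread estimate behind the other classes. The medians of probes switched on are 1.49 (Tdg+/-) and 1.37 (Tdg-/-), and those of probes switched off -1.65 in each.

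The differences between NP and ES cells stand beside those between the genotypes as follows. The median size of the log2 difference was 0.60 between NP and ES Tdg+/- cells, 0.17 between Tdg-/- and Tdg+/- NP cells and 0.13 between Tdg-/- and Tdg+/- ES cells. By the rule of all arrays against none, 80 probes were detected in Tdg-/- but not Tdg+/- NP cells and 136 the other way round, and 24 in Tdg-/- but not Tdg+/- ES cells and 104 the other way round. These comparisons share the Tdg+/- arrays with the one described here, and no test was made between them.

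The step from ES to NP cells itself differed between the genotypes for 2015 of 19285 probes (10.4%), by limma's test of the difference; the change in Tdg+/- minus that in Tdg-/- cells was positive for 964 (5%) and negative for 1051 (5.45%). The change ran in the same direction in both genotypes but was larger in Tdg+/- cells for 733 of these and larger in Tdg-/- cells for 927. In the other 355 the fitted changes had opposite signs. Among the probes switched on 386 differed (29.6%), 234 with the larger change in Tdg+/- cells; since the Tdg+/- arrays chose them, a larger change there is in part a product of the choice. Among the probes tuned up 624 differed (13.6%), among those tuned down 439 (8.83%) and among those switched off 105 (12.5%). At least 2-fold differences were found for 717 probes. On slide 1 alone, and on slide 2 alone, with 6 arrays each, limma called 0 probes, and 2462 and 2561 had an unadjusted p under 0.05.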

How the data were processed

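Per the file headers, the deposited table of 12 ES and NP arrays gives an intensity and a detection p-value for each probe, not normalized. A second deposited table holds the authors' log2 values of the same arrays, with a median of 8.14 on every array. Its order of probes follows the intensities, so its direction is known; its transformation and any background step are not stated, and it was used as an alternative only. Per the submitters' processing notes, GenomeStudio, lumi 1.10.1 and limma 2.16.4 were used for Illumina arrays; the deposited log2 fibroblast table served only to check probe names.

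Intensities were background-corrected with limma 3.58.1 in R 4.3.3 (normexp with detection p-values, offset 16), quantile-normalized and put on a log2 scale. Probes with detection p under 0.01 on at least 3 of 12 arrays were tested, 19285 of 45281. NP and ES cells were compared by limma in a model of all 4 groups, with Benjamini-Hochberg adjustment and a threshold of 0.05; Tdg-/- arrays had a fit of their own. Classes and alternatives were chosen with earlier results of these data known. No gene was named. Probes described singly were the 3 brightest switched on and off and the 3 largest rises and falls among probes detected on all 6 arrays, past the threshold and not overlapping. The procedure was tested on simulated data for NP against ES Tdg+/- cells over 19285 probes, with changes put into 200 of them. It recovered 34% of log2 changes of 0.5, 80% of those of 1 and 100% of those of 2, with 4.85% of calls false. In the data 69.5% of probes were called, so the adjustment was less strict there. These shares therefore do not give the recovery in the data. For the difference between genotypes the procedure recovered 4%, 50% and 96% of these sizes in the simulated data. Same-numbered NP and ES arrays did not deviate together (correlations -0.07 to 0.06), so replicate numbers were not taken as pairs. No arrays held identical values. The number of arrays limits the precision.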

Additional observations from a re-analysis of the deposited data

Results flagged for a closer look

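The change from ES to NP cells differed between Tdg+/- and Tdg-/- cells for 2015 probes by limma's test of the difference, with adjusted p under 0.05. That is 10.4% of all tested probes. Among the probes described singly, 4 of 12 were in this set, and in all 4 the fitted rise was larger in Tdg+/- cells. The 3 largest rises among them lie within 2 rows of each other and may measure a single transcript, which was not tested. In the authors' deposited table the third probe switched off and the largest fall differed too (limma adjusted p = 0.00109 and 0.0177). Both fell further in Tdg-/- cells there. For the second brightest probe switched on the fitted difference in log2 change was 1.96 (limma adjusted p = 5.53e-05). No ES array of either genotype detected this probe, so the changes have no exact size; its measured levels were those in NP cells, with means of 11.95 in Tdg+/- and 10.40 in Tdg-/- cells. Without background correction the difference was 1.64. For the largest rise among probes detected at both stages it was 1.78 (limma adjusted p = 8.31e-05), with rises of 191-fold in Tdg+/- and 55.7-fold in Tdg-/- cells. For the next 2 it was 1.79 and 1.83, with rises of 189-fold and 146-fold in Tdg+/- cells and of 54.5-fold and 40.9-fold in Tdg-/- cells. Without background correction the differences of these 3 were 1.50, 1.52 and 1.60, and in the authors' deposited table they were 1.36, 1.32 and 1.38. For the 3 largest rises the mean NP levels were 14.15, 14.56 and 14.61 in Tdg+/- and 13.01, 13.56 and 13.63 in Tdg-/- cells, and the mean ES levels 6.57, 7 and 7.42 in Tdg+/- and 7.21, 7.79 and 8.28 in Tdg-/- cells. These probes were chosen as the largest changes on the Tdg+/- arrays, which in part favours a larger change there.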

How the results depend on the processing

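The log2 differences of the probes described singly, and the difference in detected probes, kept their sign under every alternative. Counts and bounded folds have no sign and could not reverse. The balance of calls did turn: 6686 probes were higher and 6719 lower as reported, against 6228 and 5949 with arrays scaled to one median. Of the settings tried for the main counts, 109 stayed close to the value reported and 15 moved it. Close means within a factor of 1.5, so that 1950 switched on (slide 1 alone) counts as close to 1304. For the difference in detected probes it means only the same sign and the same side of p = 0.05 in the permutation test. A 2-fold limit left 5757 probes different between NP and ES Tdg+/- cells, 1638 tuned up, 1705 tuned down, 5970 different in Tdg-/- cells and 717 whose change differed between genotypes. That last count was 1226 with arrays scaled to one median, 1342 for probes detected on every array, and 0 on slide 1 alone and 0 on slide 2 alone, where 2462 and 2561 probes had an unadjusted p under 0.05; the cause was not tested, but a slide holds fewer arrays. Median scaling gave 519 of the 1226 (42.3%) the larger value in Tdg+/- cells, against 964 of 2015 as reported. Detection on at least 2 arrays of a group and at most 1 of the other switched 2294 probes on and 1703 off, and a bounded fold of at least 2 left 539 and 424. Slide 1 alone switched off 1471, and slide 2 alone switched on 2451, since fewer arrays must meet the rule. With the replicate number as a block, 13293 probes differed between NP and ES Tdg+/- cells, 12388 in Tdg-/- cells and 1767 between genotypes. Leaving out each replicate in turn gave 12575 to 12687, 4300 to 4406 tuned up, 4706 to 4856 tuned down, 1355 to 1513 switched on, 897 to 1062 switched off, 11817 to 12589 in Tdg-/- cells and 1538 to 1879 between genotypes, with 262 to 841 for the difference in detected probes. Fold sizes depend on the scale of level. For all 12 probes described singly the change was smaller without background correction and in the authors' deposited table. What made it smaller in that table was not tested, as its transformation is not stated. In that table the bound of the brightest probe switched on was 19.98-fold, against 146-fold on the corrected levels. The bound of the third probe switched off was 11.5-fold there, against 91.2-fold. Signal close to background limits what can be said of low probes.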

Other observations

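Rows that lie next to each other in the deposited table of intensities changed alike. The log2 difference between NP and ES Tdg+/- cells correlated at 0.26 between a row and the next one, at 0.122 between rows 2 apart, at 0.0661 between rows 3 apart and at 0.00471 between rows 100 apart. The Tdg-/- arrays gave 0.257 for the next row. When the same rows were sorted by probe ID the value for the next row was 0.00475. A probe switched on was followed by another in 12.2% of cases, where the class is 2.88% of the array, and a probe switched off by another in 11.1%, where the class is 1.86%. These correlations are across probes, which are not independent replicates, and why the deposited row order carries them was not tested.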
